A study of Mus musculus with 34 samples.

Results

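The genes of the Ly6 family described here are Ly6a, which encodes Sca-1, and its neighbors Ly6e, Ly6c1 and Ly6c2. They were chosen by name, as the rows of the count table that carry these 4 symbols, out of 13108 gene rows. RNA was sequenced from HSCs sorted as LSK CD48-CD150+ cells (lineage-negative, Sca-1+, c-Kit+), with 100 cells in a library and 2 libraries from a mouse. Ythdf2 CTL mice carry a Ythdf2 fl/fl allele in which GFP is fused to YTHDF2 and exon 2 lies between loxP sites, and Ythdf2 CKO mice carry the same allele with Vav-iCre, which deletes it in hematopoietic cells. The labels call these groups wild type and YTHDF2 KO and give the strain as C57BL/6. The young mice (8 to 12 wk) were 4 Ythdf2 CTL and 4 Ythdf2 CKO animals, and the aged mice (1 yr) were 4 Ythdf2 CTL and 5 Ythdf2 CKO animals. The libraries of a mouse were summed and mice were the replicates.

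Ly6 proteins are small, cysteine-rich surface proteins that are held in the membrane by a glycosylphosphatidylinositol (GPI) anchor. Sca-1 is a defining surface antigen of mouse HSCs, and Ly6a transcription is induced by interferons. Ly6e is also interferon inducible and has been studied as an antiviral factor, whereas Ly6c1 and Ly6c2 encode the Ly6C antigens of monocytes, some T cells and endothelial cells. YTHDF2 binds N6-methyladenosine (m6A) in mRNA and promotes decay of the bound transcripts. The HSCs were sorted on Sca-1 protein, so every level of Ly6a below was measured in cells selected for its product.

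The 4 genes lie within 156.92 kb of chromosome 15 (GRCm38). Ly6e is at chr15:74955051-74959905 on the plus strand, and Ly6a at chr15:74994877-74998031, Ly6c1 at chr15:75044018-75048830 and Ly6c2 at chr15:75108158-75111970 are on the minus strand. The coding sequences of Ly6c1 and Ly6c2 are 97.7% identical, and Ly6a is 82.0% identical to Ly6c1 and 81.7% to Ly6c2, whereas Ly6e is between 50.0% and 52.7% identical to the others. Because reads from such copies can be assigned to the wrong gene, a stretch of the last coding exon is shown. Among 99 windows of 120 bases of that exon of Ly6a, it is the first of 2 with the most bases identical in Ly6c1 and Ly6c2. It is exon 3 of 3 in Ly6a (chr15:74995263-74995382) and exon 4 of 4 in Ly6e (chr15:74958587-74958712), Ly6c1 (chr15:75045403-75045522) and Ly6c2 (chr15:75108544-75108663). Each is given 5′ to 3′ on the coding strand from the GENCODE M21 transcripts, and capitals mark bases that differ from, or have no partner in, Ly6a.
Ly6a: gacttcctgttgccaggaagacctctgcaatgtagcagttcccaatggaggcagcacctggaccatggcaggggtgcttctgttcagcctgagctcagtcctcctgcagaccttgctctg
Ly6e: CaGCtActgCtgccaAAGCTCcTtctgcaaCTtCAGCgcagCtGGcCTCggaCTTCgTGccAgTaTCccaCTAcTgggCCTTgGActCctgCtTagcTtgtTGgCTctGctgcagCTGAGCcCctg
Ly6c1: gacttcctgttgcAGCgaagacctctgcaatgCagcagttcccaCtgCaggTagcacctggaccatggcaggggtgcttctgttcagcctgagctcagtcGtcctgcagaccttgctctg
Ly6c2: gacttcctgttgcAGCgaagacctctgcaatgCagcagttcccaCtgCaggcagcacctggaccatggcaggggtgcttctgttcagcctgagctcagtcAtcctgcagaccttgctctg
Over these 120 bases Ly6c1 differs from Ly6a at 8 positions and Ly6c2 at 7, and Ly6c1 and Ly6c2 differ from each other at 2. The Ly6e stretch has 60 capitals. Of the 50-base words of the Ly6c1 transcript, 31.7% occur in a Ly6c2 transcript and 5.03% in a Ly6a transcript, whereas 1.43% of the Ly6a words occur in a Ly6c1 transcript and no word is shared with Ly6e. Values of Ly6c1 and Ly6c2 are therefore uncertain between these copies, because how multi-mapping reads were assigned is not given in the sources used here. The use of strand is not given either, and the RefSeq annotation of this build places a noncoding gene, Gm28068, across the interval of Ly6a.

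Library totals were between 1859784 and 7784627 counts in the 33 libraries used, and 1 library of Ythdf2 CTL mouse 99, with 187034 counts, was left out as the submitters did. Ythdf2 itself was read first, as CPM scaled by TMM. In young mice it was between 93.3 and 123 CPM in Ythdf2 CTL and between 50.3 and 60.2 CPM in Ythdf2 CKO, with no overlap. In aged mice it was 142, 164 and 179 CPM in 3 Ythdf2 CTL mice but 70.4 CPM in the mouse labelled Ythdf2 CTL 124. It was between 72.4 and 87.7 CPM in 4 aged Ythdf2 CKO mice but 188 CPM in the mouse labelled Ythdf2 CKO 121. These 2 mice go against their labels, so fold changes and tests of the aged Ly6 genes and gene lists are given with and without them. All 10 HSC markers examined had counts in every group, with a summed level between 1202 and 2771 CPM per mouse. Of 4 genes for lineage antigens of the sort that had a row, Cd4, Cd5 and Itgam had group means of at most 5.78 CPM, and Ptprc, whose CD45 protein is on all leukocytes, had 211 to 288 CPM.

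Ly6a was higher in young Ythdf2 CKO than in young Ythdf2 CTL HSCs, by 2.30-fold. The level of Ly6a was 340, 254, 257 and 270 CPM in Ythdf2 CTL mice 1 to 4 and 627, 621, 906 and 417 CPM in Ythdf2 CKO mice 1 to 4. All 4 Ythdf2 CKO mice were above the highest Ythdf2 CTL mouse, with mouse 3 the highest and mouse 4 nearest to the controls. The means were 280 CPM ± 40.4 (SD, n = 4) and 643 CPM ± 201 (SD, n = 4), and the log2 fold change was 1.20 ± 0.19 (SE; edgeR quasi-likelihood test, adjusted p = 0.0201). In that comparison 15 of 11526 genes were called higher (0.13%), and the groups of 2.68% of genes did not overlap in this direction. The mean log2 CPM differed by 1.15 (two-sided exact permutation test over mice, p = 0.0286, the smallest that 4 against 4 mice allow). For the 2 libraries of a mouse, Ly6a differed by a median of 0.24 on the log2 scale over 16 mice and by 1.07 at most, in young Ythdf2 CTL mouse 4. Single libraries overlapped between the genotypes, since the highest of 8 Ythdf2 CTL libraries had 424 CPM and the lowest of 8 Ythdf2 CKO libraries 379 CPM.

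**Figure D1:**
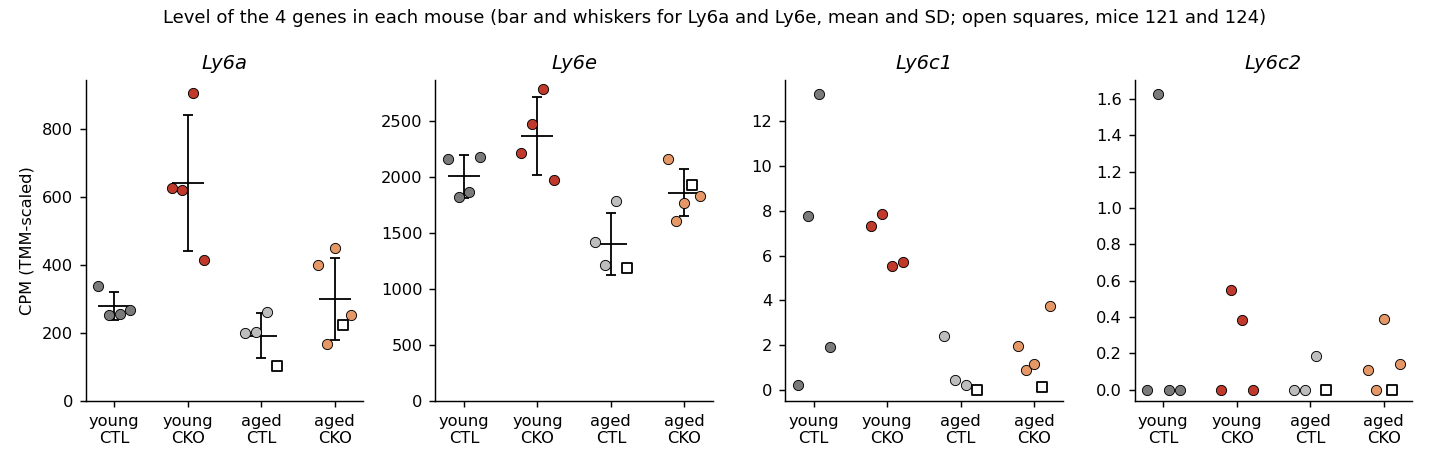
The level in CPM scaled by TMM (vertical axes, linear) of Ly6a, Ly6e, Ly6c1 and Ly6c2, with a point for each mouse in the 4 groups; bars and whiskers for Ly6a and Ly6e are mean and SD, and open squares are mice 121 and 124. The 4 young Ythdf2 CKO mice lie between 417 and 906 CPM for Ly6a, above all young Ythdf2 CTL mice, and Ly6c1 and Ly6c2 stay below 14 CPM in every mouse.

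The direction of the Ly6a difference was the same in all fits made, but the call was not. The log2 fold change was between 0.99 and 1.36 when each of the 8 young mice was left out in turn. The adjusted p stayed under the threshold without Ythdf2 CKO mouse 3 (0.0164) and without Ythdf2 CKO mouse 4 (0.0114), and was between 0.0620 and 0.120 without Ythdf2 CKO mouse 1 or 2 or any of the 4 Ythdf2 CTL mice (edgeR quasi-likelihood test). It was 0.361 with all 17 mice in 1 fit and 0.0737 with a covariate for Y-linked reads. With DESeq2 over mice it was 1.83e-06. Of 8 settings other than leaving out a mouse, 6 called Ly6a, some of them with libraries as replicates. The study's methods name the likelihood ratio test, and the series' design text treats libraries as replicates. That test over libraries called Ly6a with an adjusted p of 1.58e-06, in a test that called 66 of 10589 genes higher (0.623%). It takes the libraries of a mouse as independent although they come from the same animal. Its p-value therefore does not measure the spread between mice and overstates the evidence.

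**Figure D2:**
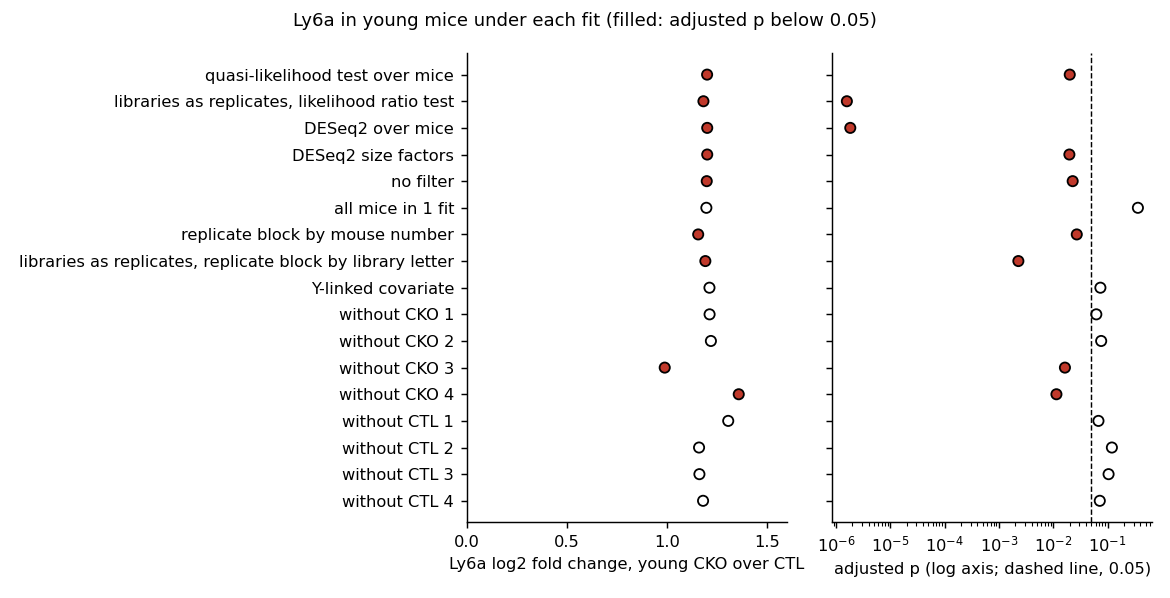
Ly6a in young mice under each fit (rows), with the log2 fold change of Ythdf2 CKO over Ythdf2 CTL at left and the adjusted p on a log axis at right; filled points have an adjusted p below 0.05. The fold change lies between 0.99 and 1.36 in all fits, whereas the adjusted p lies on both sides of the dashed line at 0.05.

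Reads of Y-linked genes were present in 3 of 4 young Ythdf2 CTL mice and in 1 of 4 young Ythdf2 CKO mice. Among mice with such reads, Ly6a was 254 to 340 CPM in Ythdf2 CTL and 627 CPM in Ythdf2 CKO. Among mice without them, it was 270 CPM in Ythdf2 CTL and 417 to 906 CPM in Ythdf2 CKO, and in each kind of mice 1 of the genotypes is a single mouse.

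Transcripts of the other gate antigens were compared with Ly6a. Kit, which encodes c-Kit, had 317 to 426 CPM in young Ythdf2 CTL and 309 to 407 CPM in young Ythdf2 CKO mice, with a log2 fold change of -0.01 ± 0.14 (SE). Slamf1, which encodes CD150, had 43.8 to 86.5 CPM and 74.4 to 104 CPM, and its log2 fold change of 0.53 ± 0.21 (SE) was not called (edgeR, adjusted p = 0.605). Cd48, whose product was gated out, had 53.8 to 87.0 CPM and 97.9 to 106 CPM without overlap, and its log2 fold change of 0.58 ± 0.18 (SE) was not called (edgeR, adjusted p = 0.372). The summed level of 5 megakaryocyte markers did not overlap in young mice either, at 492 to 803 CPM in Ythdf2 CTL and 930 to 2941 CPM in Ythdf2 CKO mice. Pf4, which encodes platelet factor 4, made up 79.9% to 94.0% of that sum in Ythdf2 CKO mice and was called higher (log2 fold change 1.80; edgeR, adjusted p = 0.0488). Its call held in 2 of 8 fits without 1 mouse, those without Ythdf2 CKO mouse 1 or 4, and ended with the covariate for Y-linked reads (adjusted p = 0.408) and with all mice in 1 fit (0.316). The other 4 were not called, with log2 fold changes of 0.43 for Itga2b, 1.43 for Ppbp, -0.25 for Gp1ba and -0.45 for Gp9, and none of the 5 was at 0. The 8 monocyte markers had 805 to 893 CPM in Ythdf2 CTL and 760 to 976 CPM in Ythdf2 CKO mice, nearly all of it Lyz2, and the defining genes Csf1r and Ccr2 had group means of at most 0.41 CPM. The part of Cd48 and of Pf4 in the Ly6a result was not tested. In samples of sorted cells, a different share of cells of a type and a different amount of RNA per cell cannot be told apart.

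Ly6e was the most abundant of the 4 genes and was not called between genotypes in young mice. Its level was 2158, 1819, 1864 and 2183 CPM in Ythdf2 CTL mice 1 to 4 and 2214, 2473, 2785 and 1975 CPM in Ythdf2 CKO mice 1 to 4. Ythdf2 CKO mice 1 to 3 were above all controls, and mouse 4, which also had the lowest Ly6a of its group, lay among the controls. The means were 2006 CPM ± 191 (SD, n = 4) and 2362 CPM ± 348 (SD, n = 4), with a log2 fold change of 0.24 ± 0.13 (SE; edgeR quasi-likelihood test, adjusted p = 0.755). It was between 0.15, without Ythdf2 CKO mouse 3, and 0.31 when each mouse was left out in turn. The exact permutation test over mice gave p = 0.114.

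Levels of different genes were compared per kilobase of annotated exon. The length was the union of the exons of all annotated transcripts of a gene. It was 1.205 kb for Ly6a, 3.784 kb for Ly6e, 1.677 kb for Ly6c1 and 2.74 kb for Ly6c2. A union can be longer than the transcript present, so comparisons between genes are approximate. The level per kb was 530 CPM ± 50.5 (SD, n = 4) for Ly6e and 233 CPM ± 33.5 (SD, n = 4) for Ly6a in young Ythdf2 CTL mice. In young Ythdf2 CKO mice it was 624 CPM ± 91.9 (SD, n = 4) and 533 CPM ± 167 (SD, n = 4). The ratio of Ly6e to Ly6a per kb was between 2.02 and 2.58 in young Ythdf2 CTL and between 0.978 and 1.51 in young Ythdf2 CKO mice. In aged mice the genotypes overlapped, with ratios between 1.91 and 3.64 in Ythdf2 CTL and between 1.25 and 3.01 in Ythdf2 CKO. Ly6c1 had 3.44 CPM and 3.94 CPM per kb in young Ythdf2 CTL and young Ythdf2 CKO mice, and Ly6c2 had 0.148 and 0.0849 CPM per kb.

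Ly6c1 and Ly6c2, the genes of Ly6C, were the least abundant of the 4. Ly6c1 had 1, 43, 91 and 11 counts in young Ythdf2 CTL mice 1 to 4, or 0.22, 7.77, 13.2 and 1.89 CPM. In young Ythdf2 CKO mice 1 to 4 it had 37, 43, 29 and 38 counts, or 7.31, 7.86, 5.54 and 5.71 CPM. The Ythdf2 CKO mice thus fell inside the range of the Ythdf2 CTL mice, which was wide. The log2 fold change was 0.18 ± 0.75 (SE; edgeR quasi-likelihood test, adjusted p = 0.986), and its sign turned when Ythdf2 CTL mouse 1 (-0.21) or 4 (-0.11) was left out. Ly6c1 counts were between 0.0647% and 5.14% of the Ly6a counts of a young Ythdf2 CTL mouse and between 0.612% and 1.37% of those of a young Ythdf2 CKO mouse. In aged mice Ly6c1 had 23, 1, 1 and 0 counts in Ythdf2 CTL 65, 99, 114 and 124 and 18, 9, 6, 1 and 26 counts in Ythdf2 CKO 78, 81, 94, 121 and 122, too few for the test, and without mice 121 and 124 its log2 fold change was 0.82 (edgeR, adjusted p = 0.834). Ly6c2 had 9 counts in young Ythdf2 CTL mice, all of them in mouse 2, and 5, 1 and 4 counts in the young Ythdf2 CKO, aged Ythdf2 CTL and aged Ythdf2 CKO groups. It passed the filter in neither age, and 3 counts in a group correspond to between 0.0792 and 0.130 CPM. The libraries have no molecular identifiers, so these limits cover counting error only.

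In aged HSCs neither Ly6a nor Ly6e was called between genotypes. Ly6a was 201, 203, 264 and 104 CPM in Ythdf2 CTL 65, 99, 114 and 124 and 401, 170.0, 452, 224 and 253 CPM in Ythdf2 CKO 78, 81, 94, 121 and 122. Mice 78 and 94 were above all aged controls, and the other 3 Ythdf2 CKO mice lay among them. The means were 193 CPM ± 65.9 (SD, n = 4) and 300.1 CPM ± 121 (SD, n = 5), with a log2 fold change of 0.65 ± 0.31 (SE; edgeR quasi-likelihood test, adjusted p = 0.507). The exact permutation test over mice gave p = 0.183, and p = 0.371 over the 7 mice without 121 and 124. Without mice 121 and 124 the log2 fold change was 0.52 (edgeR, adjusted p = 0.523). Of the other gate antigens in aged mice, Slamf1 had a log2 fold change of 0.84 ± 0.36 (SE; edgeR, adjusted p = 0.458). Kit had 0.09 and Cd48 0.07, and none of them was called. Without mice 121 and 124 the mean log2 CPM of Slamf1 differed by 1.27 (exact permutation test, p = 0.0286, the smallest that 4 against 3 mice allow).

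Ly6e in aged mice was 1425, 1217, 1790 and 1192 CPM in Ythdf2 CTL 65, 99, 114 and 124. It was 2164, 1606, 1770, 1930 and 1835 CPM in Ythdf2 CKO 78, 81, 94, 121 and 122. Mouse 114 was the only aged control inside the range of the Ythdf2 CKO mice. The log2 fold change was 0.41 ± 0.16 (SE; edgeR quasi-likelihood test, adjusted p = 0.417), and 0.32 without mice 121 and 124 (adjusted p = 0.494). The exact permutation test gave p = 0.0397 over 9 mice and p = 0.171 over the 7 mice without 121 and 124. The fit over all genes called 0 of 11961 genes higher (0%) and 0 lower in aged mice, but 25 higher and 15 lower without mice 121 and 124 and 12 higher and 4 lower without mouse 121 alone. With all mice, 532 genes had an unadjusted p below 0.05 with higher and 676 with lower values in Ythdf2 CKO mice. DESeq2 called 54 genes higher and 50 lower and the likelihood ratio test over libraries 136 and 284, and neither called Ly6a or Ly6e. The groups of 1.78% of genes did not overlap with Ythdf2 CKO higher, and Ly6a and Ly6e were not among them. The summed megakaryocyte markers did not overlap in aged mice, at 320 to 493 CPM in Ythdf2 CTL and 506 to 1768 CPM in Ythdf2 CKO mice, and were at 1364 CPM or more in Ythdf2 CKO mice without mouse 121.

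The genotype effect was not shown to differ between ages for any of the 3 genes that could be tested. The difference of the log2 fold changes (aged minus young) was -0.56 ± 0.40 (SE) for Ly6a, 0.17 ± 0.21 (SE) for Ly6e and 0.75 ± 1.47 (SE) for Ly6c1 (edgeR quasi-likelihood test, adjusted p = 0.999 for each). Without mice 121 and 124 it was -0.68, 0.08 and 0.61 (edgeR, adjusted p of 0.779 or more), and without 1 mouse it was between -0.76 and -0.35 for Ly6a and between 0.09 and 0.31 for Ly6e. For Ly6c1 it was between -0.03 and 3.00 without 1 mouse, so its sign was not stable. The effect on Ly6a was called in young mice and not in aged mice, but the test of that difference does not separate them.

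The order of the mean Ly6a levels was young Ythdf2 CKO, aged Ythdf2 CKO, young Ythdf2 CTL and aged Ythdf2 CTL. Aged Ythdf2 CKO and young Ythdf2 CTL mice, neighbors in this order, overlapped and were not tested against each other. For Ly6e the order was young Ythdf2 CKO (2362 CPM), young Ythdf2 CTL (2006 CPM), aged Ythdf2 CKO (1861 CPM) and aged Ythdf2 CTL (1406 CPM). The descriptions of young and aged libraries carry different prefixes, so age and whatever else these prefixes mark cannot be told apart. Reads of Y-linked genes were present in 3 of 4 young but 1 of 4 aged Ythdf2 CTL mice. In Ythdf2 CKO mice they were present in 1 of 4 young and 1 of 5 aged animals. The part of this imbalance in the age differences was not tested. Within Ythdf2 CKO mice the log2 fold change of Ly6a from young to aged was -1.10 ± 0.27 (SE; edgeR quasi-likelihood test, adjusted p = 0.00868), and it was called without each mouse in turn and without mice 121 and 124 (adjusted p = 0.00832). The ranges of those groups overlapped, since aged mouse 94 had more Ly6a than young mouse 4. Within Ythdf2 CTL mice it was -0.54 ± 0.29 (SE), which was not called (edgeR, adjusted p = 0.219), and -0.33 without mice 121 and 124 (adjusted p = 0.430) or -0.35 without mouse 124 alone. In these comparisons 9.34% of genes were called lower in aged Ythdf2 CKO and 8.07% in aged Ythdf2 CTL mice, and the median log2 fold change over all genes was 0.07 and 0.11.

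Ly6e was lower in aged than in young Ythdf2 CTL mice without overlap of the groups, with a log2 fold change of -0.51 ± 0.15 (SE; edgeR quasi-likelihood test, adjusted p = 0.0269). The groups of 10% of genes did not overlap in this direction. This call ended without mice 121 and 124 (-0.44, adjusted p = 0.0530), without aged mouse 99 (adjusted p = 0.0634) and without young mouse 1 (0.0771) or 4 (0.0782). In Ythdf2 CKO mice the log2 fold change of Ly6e with age was -0.34 ± 0.14 (SE; edgeR, adjusted p = 0.104), and -0.36 without mice 121 and 124. Ly6c1 had log2 fold changes with age of -2.81 ± 1.14 (SE) in Ythdf2 CTL and -2.06 ± 1.01 (SE) in Ythdf2 CKO mice, which were not called (edgeR quasi-likelihood test, adjusted p = 0.101 and 0.175). Without mice 121 and 124 they were -2.38 and -1.76 (adjusted p = 0.124 and 0.188). The Ythdf2 CTL groups overlapped, and without aged mouse 65, which held 23 of the 25 counts of its group, the log2 fold change there was -5.07 and was called (edgeR, adjusted p = 0.0211). The Ythdf2 CKO groups did not overlap, at 5.54 to 7.86 CPM in young and 0.132 to 3.73 CPM in aged mice, and the groups of 11.3% of genes did not overlap in this direction. Cd48 moved with age more than Ly6a or Ly6e, from 53.8 to 106 CPM over the young mice to between 0.629 and 28.2 CPM over the aged mice. The summed HSC markers also moved with age in Ythdf2 CKO mice without overlap, from 1299 to 1867 CPM in young to between 1987 and 2325 CPM in aged mice, but overlapped in Ythdf2 CTL mice. Kit was called higher in aged than in young Ythdf2 CKO mice (log2 fold change 0.47 ± 0.14 (SE); edgeR, adjusted p = 0.0294), as were 891 of 12352 genes. In Ythdf2 CTL mice its log2 fold change with age was 0.37 and was not called (edgeR, adjusted p = 0.107). The summed monocyte markers were 805 to 893 CPM in young and 466 to 732 CPM in aged Ythdf2 CTL mice, without overlap, and overlapped in Ythdf2 CKO mice. Most of this sum was Lyz2 alone, with means of 757 CPM in young and 574 CPM in aged Ythdf2 CTL mice. The part of these genes in the age differences was not tested.

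**Figure D3:**
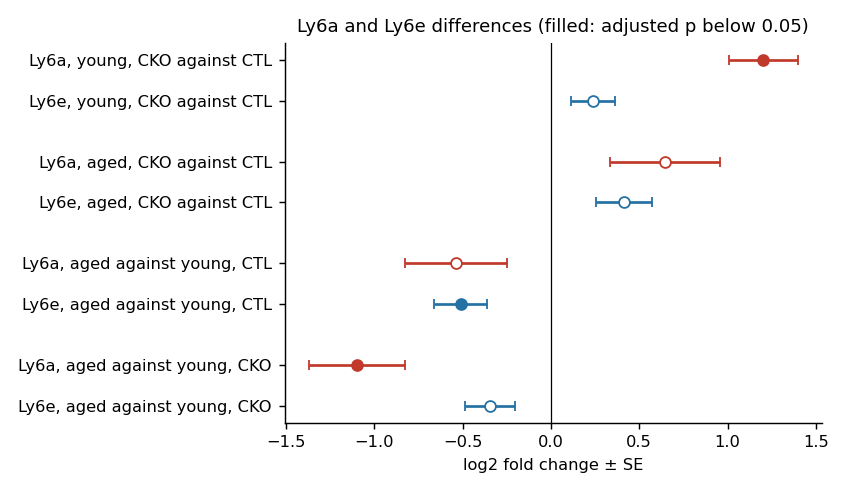
The log2 fold change with its SE (horizontal axis) of Ly6a and Ly6e between genotypes within each age and between ages within each genotype; filled points have an adjusted p below 0.05. Ly6a is filled for young mice (1.20) and for aged against young Ythdf2 CKO mice (-1.10), and Ly6e for aged against young Ythdf2 CTL mice (-0.51).

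The genes whose levels were most like those of Ly6a across the 17 mice were Rtp4, Irgm1, Ttc33, Il21r and Esco1. Pearson's r of log2 CPM was 0.93 for Rtp4, which encodes an interferon-inducible receptor transporter protein, and 0.87 for Irgm1, an interferon-inducible GTPase, among 9508 genes. Ttc33, Il21r, which encodes the interleukin-21 receptor, and Esco1, an acetyltransferase of cohesin, had r of 0.85 to 0.86. Ly6e was sixth, with r of 0.85. The genes most like Ly6e were Ifitm3 (r of 0.89), an interferon-induced antiviral membrane protein, C1galt1c1, Hmox2, Uxt and Sh3glb1, each with r of 0.88 or 0.89. These correlations span ages and genotypes and carry the group differences and libraries shared by all genes. With the mean of each group removed, r was 0.70 between Ly6a and Ly6e. For the 5 genes most like Ly6a it was between 0.61 (Irgm1) and 0.80 (Rtp4), and for those most like Ly6e between 0.59 (Hmox2) and 0.78 (Ifitm3).

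**Figure D4:**
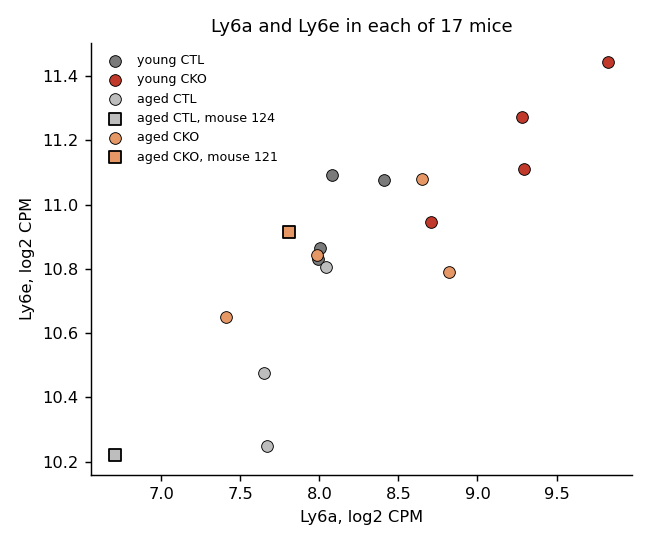
Ly6a (horizontal axis) and Ly6e (vertical axis) as log2 CPM in each of 17 mice, colored by group, with squares for mice 121 and 124. Young Ythdf2 CKO mice 1, 2 and 3 lie farthest to the right, and the mouse labelled Ythdf2 CTL 124 is lowest for both genes.

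Other genes of the Ly6/uPAR family and the neighbors of Ly6a were examined next. Of 41 further family genes, 9 had a row and 4 passed the filter, and none was called in young or aged mice (edgeR), beside 0.13% of all genes called higher and 5 of 11526 lower in young mice and none in aged mice. Plaur, which encodes the urokinase receptor, had log2 fold changes of 0.35 in young and -0.34 in aged mice, and -0.15 in aged mice without 121 and 124. Cd59a, which encodes an inhibitor of complement, had 0.08 and -0.13, and -0.27 without these 2 mice. Its paralog Cd59b had -0.37 and -0.48, and -0.60 without them. Cd59b was 9.03 to 10.9 CPM in young Ythdf2 CTL and 6.72 to 8.99 CPM in young Ythdf2 CKO mice, without overlap, as were 2.09% of genes in this direction. Lypd6b, a further gene of the family, had 0.68 and -0.58, and -1.28 without them, at levels of at most 11.9 CPM. The median of the 4 genes was 0.22 in young and -0.41 in aged mice, beside 0.00 for all genes tested. Without mice 121 and 124, 5 passed the filter in aged mice, with a median of -0.27 and no call. Within 500 kb of Ly6a, 46 genes are annotated, of which 11 had a row, 3 of these being Ly6e, Ly6c1 and Ly6c2. The others with a mean of at least 1 CPM over the 17 mice were Jrk, Them6 and 9030619P08Rik, and their log2 fold changes in young mice were 1.16, -0.70 and -0.21, none of them called (edgeR, adjusted p of 0.882 or more). In aged mice they were -0.69, 0.21 and -0.77, and without mice 121 and 124 -0.82, -0.41 and -1.04, again with no call, so that Jrk had opposite signs in the ages and the sign of Them6 in aged mice turned with these 2 mice. The difference between ages was -1.85 ± 0.88 (SE) for Jrk and was not called (edgeR, adjusted p = 0.999). The median of the neighbors tested, Ly6e among them, was -0.24 over 4 genes in aged mice and -0.05 over 6 genes without mice 121 and 124.

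Of 36 genes that build and remodel the GPI anchor of Ly6 proteins, 33 were tested in each age. In young mice 19 log2 fold changes were positive (57.6%, beside 49.9% of all genes tested) and 14 negative, with a median of 0.08. In aged mice 24 were positive (72.7%, beside 49.7% of all genes tested) and 9 negative, with a median of 0.21, and without mice 121 and 124 the median of 34 tested genes was 0.12 with 22 positive values. None of these genes was called in any of these fits (edgeR), where 0.13% of all genes were called higher and 5 of 11526 lower in young mice, none in aged mice, and 25 higher and 15 lower without mice 121 and 124, so a count of 0 is near the background.

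Interferon-inducible genes were followed because Ly6a and Ly6e belong to this class. In young mice 3 of 30 were called higher and none lower, and the groups of 8 did not overlap with Ythdf2 CKO higher, beside the 0.13% and 2.68% given above. Their median log2 fold change was 0.48 with 25 positive values, beside a median of 0.00 and 49.9% positive values for all genes. The called genes were GTPases induced by interferon, with log2 fold changes of 1.02 ± 0.16 (SE) for Igtp, 0.76 ± 0.14 (SE) for Irgm1 and 2.46 ± 0.44 (SE) for Gbp6 (edgeR, adjusted p = 0.0145, 0.0406 and 0.0406). Of 8 fits without 1 mouse, 4 called Igtp, 1 Irgm1 and 2 Gbp6, and with all mice in 1 fit none of these was called (adjusted p of 0.338 or more). With the covariate for Y-linked reads the call of Gbp6 ended (edgeR, adjusted p = 0.127), and those of Igtp (0.0463) and Irgm1 (0.0468) did not. Without Ythdf2 CTL mouse 1 or without Ythdf2 CTL mouse 2, no gene was called higher. Igtp was 134, 106, 97.5 and 121 CPM in Ythdf2 CTL mice 1 to 4 and 266, 198, 241 and 220.3 CPM in Ythdf2 CKO mice 1 to 4. As for Ly6a, all Ythdf2 CKO mice were above all controls for these 3 genes. In aged mice none of the 30 was called in either direction, their median was 0.09 with 17 positive values, and Igtp, Irgm1 and Gbp6 had 0.07, 0.38 and -0.33. Without mice 121 and 124 the median turned to -0.20 with 12 positive values, the 3 genes had -0.40, 0.16 and -0.81, and again none of the 30 was called. The difference of the genotype effect between ages (aged minus young) had a median of -0.33 over the 30 genes, beside -0.02 for all genes. It was -0.94 for Igtp, -0.38 for Irgm1 and -2.79 for Gbp6 (edgeR, adjusted p of 0.942 or more). None of the 30 was called in this test, nor was any other gene. The list was chosen with results of these samples known, so its direction is not independent evidence.

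**Figure D5:**
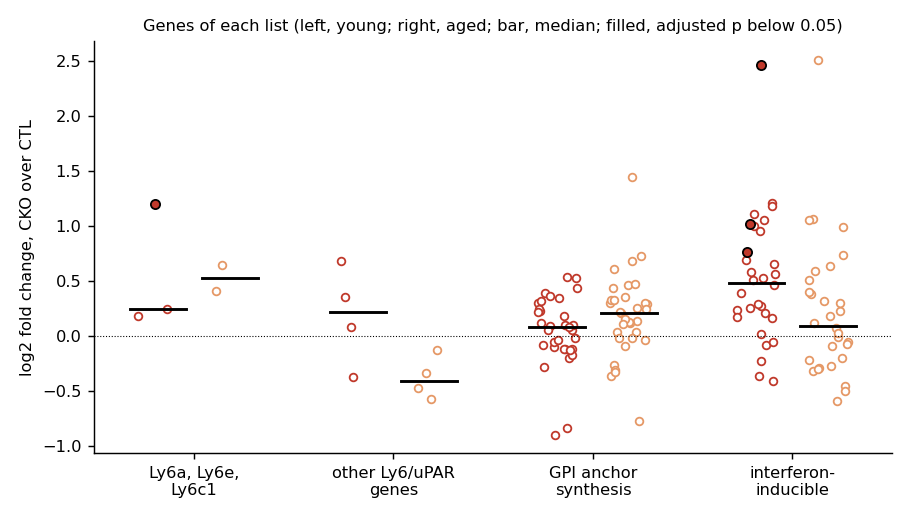
The log2 fold change of Ythdf2 CKO over Ythdf2 CTL (vertical axis) for each tested gene of 4 lists, young at left and aged at right within a list, with bars for medians and filled points for an adjusted p below 0.05. The filled points are Ly6a, Igtp, Irgm1 and Gbp6, all in young mice, and the interferon-inducible genes have a median of 0.48 in young and 0.09 in aged mice.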

How the data were processed

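HSCs of 17 mice were profiled by SMART-Seq2, a full-length cDNA method for small samples. The authors aligned reads with HISAT2 to GRCm38 (mm10) and counted them on genes with Rsubread, and the deposited values are raw counts per gene and library, without normalization. All 34 columns were mapped by name. One library was left out, as the submitters did, and the remaining libraries of a mouse were summed. Low counts were filtered with filterByExpr (a count of 10 and a total of 15 at least). TMM scaling and the quasi-likelihood test were applied in edgeR 4.0.16 (R 4.3.3), with Benjamini-Hochberg adjustment at 0.05. Each age was fitted apart, and 1 fit of all mice tested the differences between ages. The study's methods name likelihood ratio tests in edgeR, and the series' design text treats libraries as replicates. Standard errors were derived from the log2 fold change and the F statistic. CPM values use TMM factors over 17 mice, and log2 CPM has a prior count of 2. For single genes, mean log2 CPM was also compared by an exact permutation test (two-sided, mice as units).

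The genes named are the 4 Ly6 genes, Ythdf2, Kit, Slamf1 and Cd48, further Ly6/uPAR genes and genes within 500 kb of Ly6a with a mean of at least 1 CPM, called genes of the other lists, and 5 genes with the highest Pearson correlation with Ly6a and with Ly6e among tested genes of at least 10 CPM; single cell type markers were named after their values were seen. The genes and lists were chosen with earlier results of these data known. On simulated data, 41.5% of 2-fold and 85.5% of 4-fold changes were recovered in young mice, and 12% and 71.5% in aged mice. Alternatives were DESeq2 1.42.0, its size factors, no filter, libraries as replicates, replicate blocks, a Y-linked covariate, all mice in 1 fit, Ly6c1 and Ly6c2 summed, and mice left out. The paper's methods describe control mice as littermates, but which of these mice shared a litter is not given. P-values over mice measure the spread between these animals. Those with libraries as replicates take the libraries of a mouse as independent.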

Additional observations from a re-analysis of the deposited data

Results flagged for a closer look

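A single mouse stood apart from the rest of its group in 5 of 60 combinations of gene and group, where chance would flag about 1 in 20. Ly6c2 was 1.63 CPM in young Ythdf2 CTL mouse 2 and 0.186 CPM in aged Ythdf2 CTL mouse 114, with all other mice of these groups at 0. These values are 9 counts and 1 count, and beside mice at 0 a single count is enough to set a mouse apart. Ythdf2 was 188 CPM in the mouse labelled Ythdf2 CKO 121, next to 87.7 CPM. Them6, a neighbor of Ly6a, was 23.7 CPM in the same mouse, next to 8.56 CPM. Cd59a was 72.7 CPM in aged Ythdf2 CKO mouse 78, next to 50.8 CPM.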

How the results depend on the processing

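The log2 fold change of Ly6a in young mice kept its direction under 8 other settings and in 8 fits without 1 mouse. It was 1.20 with all mice in 1 fit and 1.21 with the Y-linked covariate, where it was not called, and between 0.99 and 1.36 without 1 mouse, where 2 of 8 fits called it. With a replicate block by mouse number it was 1.16 (edgeR, adjusted p = 0.0271) and with libraries as replicates and a replicate block by library letter 1.19 (edgeR, adjusted p = 0.00228). The latter fit also takes the libraries of a mouse as independent. Same-numbered young mice are different animals, and their deviations from the group means correlated by between -0.02 and 0.05. The age difference of Ly6e in Ythdf2 CTL mice was -0.44 and not called without mice 121 and 124, and between -0.66 and -0.45 without 1 mouse. Ly6c1 turned its sign in young mice without Ythdf2 CTL mouse 1 (-0.21) or 4 (-0.11), and in the difference between ages without young Ythdf2 CTL mouse 3 (-0.0324), which was between -0.0324 and 3.00 without 1 mouse. Ly6a in aged mice was between 0.43 and 0.83 and Ly6e between 0.33 and 0.54 without 1 mouse, and neither was called. In young mice 15 genes were higher and 5 lower. These counts were 66 and 24 with the likelihood ratio test over libraries, 58 and 19 with DESeq2, 35 and 15 with libraries as replicates and a replicate block by letter, 9 and 1 with the Y-linked covariate, and 1 and 0 with all mice in 1 fit, and 2 were lower with a replicate block by mouse number. In aged mice 0 were called either way, against 136 and 284 with the likelihood ratio test over libraries, 54 and 50 with DESeq2, 15 and 25 with libraries as replicates and a replicate block by letter, 3 and 2 with all mice in 1 fit, and 25 and 15 without mice 121 and 124. Without 1 mouse they were between 0 and 14 higher and 0 and 4 lower in young mice, and between 0 and 12 higher and 0 and 4 lower in aged mice. The low counts of Ly6c1 and Ly6c2 limit any comparison of these genes.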
